A study of Mus musculus with 2 samples.

Results

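The microRNA (miRNA) genes described here are 7 listed genes that lie within the gene Rtl1 in the imprinted Dlk1-Dio3 domain of mouse chromosome 12, namely Mir431, Mir433, Mir127, Mir434, Mir432, Mir136 and Mir3071. They were chosen by name for their place across from Rtl1, and all 7 were among the 2202 miRNA genes counted. Small RNA was sequenced from the gastrocnemius, the large calf muscle, which was taken on postnatal day 4 from female mice of the B6CASTF1/J cross. These animals are the first-generation hybrids of C57BL/6J and CAST/EiJ, and the labels name no further allele or treatment. There was 1 group with 2 libraries, so no condition could be compared with another. By the labels the libraries stand for females with a number each, under 1 donor entry. Levels are counts on the gene's own strand per 1000000 gene counts (CPM), with the SD over the 2 libraries.

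In the Dlk1-Dio3 domain the parental chromosomes are read differently. The paternal chromosome makes the protein-coding RNAs, among them Rtl1, a gene derived from a retrotransposon that is needed in the placenta and in fetal and neonatal muscle. The maternal chromosome makes long noncoding RNAs, including Meg3, Rian and Mirg, and a transcript that runs antisense to Rtl1 and carries miRNA hairpins. Because those miRNAs are copied from the strand opposite to Rtl1, they pair with Rtl1 mRNA without a mismatch and can guide its cleavage. In sheep, excess of the protein made from the same locus accompanies the muscle overgrowth of the callipyge phenotype. The counts used here do not tell the parental alleles apart.

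A miRNA finds most targets through its seed, bases 2 to 8 from the 5′ end. The RefSeq table for GRCm38.p6, the assembly also called mm10, held 13 mature sequences for the 7 genes. They are shown with the seed in capitals, because those of the genes opposite to Rtl1 pair with it, while Mir3071 is on the same strand as Rtl1:
miR-431-5p: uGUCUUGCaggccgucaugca
miR-431-3p: cAGGUCGUcuugcagggcuucu
miR-433-5p: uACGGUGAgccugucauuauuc
miR-433-3p: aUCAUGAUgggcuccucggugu
miR-127-5p: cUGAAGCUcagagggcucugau
miR-127-3p: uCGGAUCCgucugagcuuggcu
miR-434-5p: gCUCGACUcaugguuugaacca
miR-434-3p: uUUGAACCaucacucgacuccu
miR-432: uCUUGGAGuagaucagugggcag
miR-136-5p: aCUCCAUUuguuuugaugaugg
miR-136-3p: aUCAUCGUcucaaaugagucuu
miR-3071-5p: aCUCAUUUgagacgaugaugga
miR-3071-3p: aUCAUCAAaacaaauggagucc

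The seeds were all different from each other. None of the 13 occurred as the seed of a mature miRNA of any other gene in the table, while 68.0% of its 1738 mature miRNAs had a seed found in no other gene. Each of the 11 mature sequences of the 6 plus-strand genes had exactly 1 fully complementary site in the Rtl1 transcript of the GENCODE M21 annotation. A full match follows from their place opposite Rtl1 in the same reference. Whether the alleles of these hybrid animals match as well was not examined. For the gene with the most counts, the Rtl1 sites opposite the mature arms read as follows, in the direction of the Rtl1 mRNA and with the bases that face the seed in capitals:
Rtl1 site for miR-127-5p: aucagagcccucugAGCUUCAg
Rtl1 site for miR-127-3p: agccaagcucagacGGAUCCGa

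All 7 hairpins lay inside the coding part of Rtl1, in its exon 2, between positions 109590447 and 109595397 of chromosome 12 (mm10). Rtl1 is on the minus strand, and its coding sequence of 5232 bases without the stop codon runs from 109590172 to 109595403. The genes Mir431, Mir433, Mir127, Mir434, Mir432 and Mir136 are on the plus strand, opposite to Rtl1. Mir3071 is on the minus strand, so it is in sense to Rtl1, and the annotation goes against its place in an antisense list. It was kept in the list as given and is described apart. Counted from the first base of the start codon, the hairpins faced bases 16 to 77 (Mir136), 374 to 448 (Mir432), 805 to 898 (Mir434), 2489 to 2558 (Mir127), 3566 to 3689 (Mir433) and 4867 to 4957 (Mir431). They thus reached from the first codons of Rtl1 to 275 bases before the end of its coding sequence, and the gaps between neighbours were 1177, 1007, 1590 and 356 bases from Mir431 through to Mir432.

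Library 1 held 5569392 gene counts and library 2 held 4336759. A further 36.9% of all reads in library 1 and 37.6% in library 2 matched several places and were counted for no gene. Of 9 skeletal muscle genes, 8 were at 2 CPM or more in both libraries, with summed levels of 130998 and 120702 CPM in libraries 1 and 2. Almost all of this was Mir206, at 129336 and 119323 CPM. The other muscle genes at that level averaged 1169 CPM (Mir499), 156 (Mir208b), 87.3 (Mir486), 82.9 (Mir133b), 17.0 (Mir1a-2), 5.24 (Mir133a-1) and 2.20 (Mir1a-1). Reads that matched several places are missing from these levels. The miRNAs of genes with copies, such as Mir1a-1 and Mir1a-2, may therefore be more abundant than counted, which was not tested. Markers of other cells were present too. Endothelial Mir126a was at 29519 CPM in library 1 and 21931 in library 2, smooth muscle genes summed to 25509 and 29100 CPM with Mir143 highest, and the connective and cartilage genes, led by Mir214, summed to 5361 and 4187. Sums were 657 and 408 CPM for leukocyte genes (highest Mir223), 96.8 and 119 for erythroid genes (Mir451a), 267 and 375 for epithelial genes (Mir203), 381 and 516 for neural genes (Mir338), and 184 and 833 for liver genes (Mir122). Single genes did not all follow these sums. Neural Mir338 was at 346 CPM in library 1 and 328 in library 2, while Mir137 was higher in library 2 (log2 of library 1 over library 2 of -2.38). Liver Mir192 was higher in library 1 (0.71), against the direction of Mir122. Smooth muscle Mir145a was higher in library 1 (0.12), while Mir143 was lower there (-0.17). Skeletal muscle Mir486 was among those lower in library 1 (-0.22), against the direction of its sum. At 2 CPM or more in both libraries were 5 of 7 epithelial and 3 of 9 neural genes. Of the neural genes, Mir9-2, Mir124a-2 and Mir124a-3 had no count. Because reads that matched several places were counted for no gene, these zeros do not show that the miRNAs were absent. In a bulk sample, fewer cells of a type and less RNA per cell cannot be told apart, and the part of these cell types in the levels below was not tested.

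Of the 7 genes, 6 were detected, meaning at 2 CPM or more in both libraries, against 15.2% of all counted genes. Together they held 8.76% of the gene counts in library 1 (exact 95% interval 8.74 to 8.78) and 8.88% in library 2 (8.85 to 8.91), or 8.82% ± 0.0847 (SD, n = 2). Mir127 and Mir431 made up 82.8% ± 0.947 of that sum. The median level of the 7 genes was 7344 CPM, beside a median of 0 CPM over all counted genes, most of which had no count. Copies made by PCR could not be removed without molecular identifiers, so the intervals and limits cover only the error of counting.

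Mir127, a known regulator of Rtl1 in the mouse placenta, had the highest level of the 7 genes. It was at 43840 CPM (244163 counts) in library 1 and 44955 CPM (194958 counts) in library 2. The mean was 44397 ± 788 CPM, so the libraries lay close together. Of all 2202 genes it held rank 7 by the mean, rank 5 in library 1 and rank 7 in library 2. Mir431, which is known to act on the muscle stem cell factor Pax7 in mouse satellite cells, followed at 29294 CPM (163148 counts) in library 1 and 27990 CPM (121388 counts) in library 2. Its mean of 28642 ± 921 CPM held rank 10, while Mir431 was at rank 11 in each library. The lowest Mir127 value was above the highest Mir431 value, and Mir127 exceeded Mir431 by 1.497-fold in library 1 and 1.61-fold in library 2.

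Mir433 and Mir434 shared the next level. Mir433 was at 6946 CPM (38683 counts) in library 1 and 7853 CPM (34055 counts) in library 2, a mean of 7399 ± 641 CPM. Mir434, whose 3p arm is known to be lower in muscle of old mice than of young ones, was at 7071 CPM (39383 counts) in library 1 and 7617 CPM (33034 counts) in library 2, a mean of 7344 ± 386 CPM. The ranges overlapped and the order changed, since the ratio of Mir433 to Mir434 was 0.982 in library 1 and 1.03 in library 2. These neighbours in the order did not differ beyond the spread between the libraries.

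Mir136 was far lower, at 433.8 CPM (2416 counts) in library 1 and 368 CPM (1597 counts) in library 2, a mean of 401 ± 46.4 CPM and rank 127. Mir127 exceeded Mir136 by 101-fold in library 1 and 122-fold in library 2, although in the reference sequence the miRNAs of both genes match Rtl1 in full. Mir3071 was at 12.9 CPM (72 counts) in library 1 and 11.99 CPM (52 counts) in library 2, a mean of 12.5 ± 0.663 CPM. Mir432 had no count in either library, on either strand, and a count of 0 leaves room for 3 counts, or 0.539 CPM, in library 1 and 0.692 CPM in library 2. At this depth Mir432 was therefore not detected, and a level below these limits cannot be told from none. Apart from Mir433 and Mir434, no neighbours in the order of levels overlapped. The spread between libraries, as a share of the mean, went from 1.78% for Mir127 to 11.6% for Mir136.

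**Figure D1:**
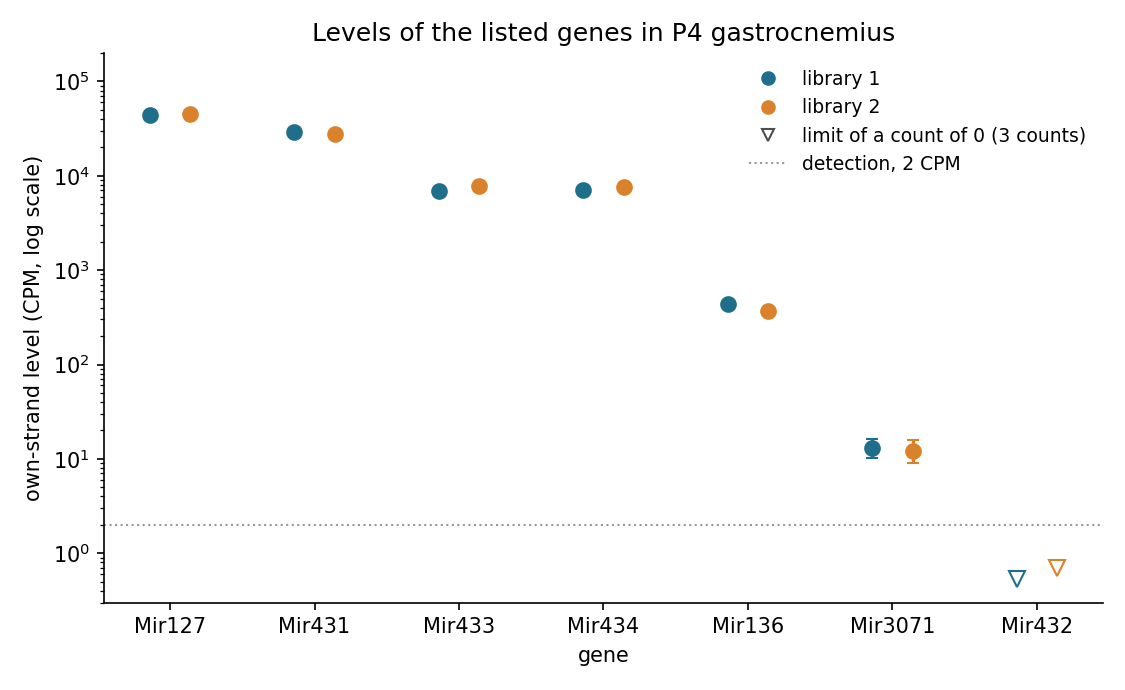
Level of each listed gene on its own strand in CPM (log scale) in library 1 and library 2, with exact 95% counting intervals that are mostly smaller than the points. Mir127 is highest at 43840 and 44955 CPM, Mir433 and Mir434 overlap, and Mir432 is drawn at the limit that a count of 0 allows.

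Levels did not follow the place of the hairpins along Rtl1 in 1 direction. Mir431, nearest the end of the Rtl1 coding sequence, and Mir127, near its middle, were the highest, with the lower Mir433 between them. The lowest levels were at the start of the coding sequence, where Mir432, Mir3071 and Mir136 lie within 442 bases of each other. Hairpins ranged in length from 62 bases (Mir136) to 124 bases (Mir433) and in G and C content from 40.3% (Mir136) to 60.4% (Mir431). Mir432, with no count, had 57.3% G and C, beside 57.1% in Mir127. Because counts are per gene, the 5p and 3p arms could not be told apart.

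**Figure D2:**
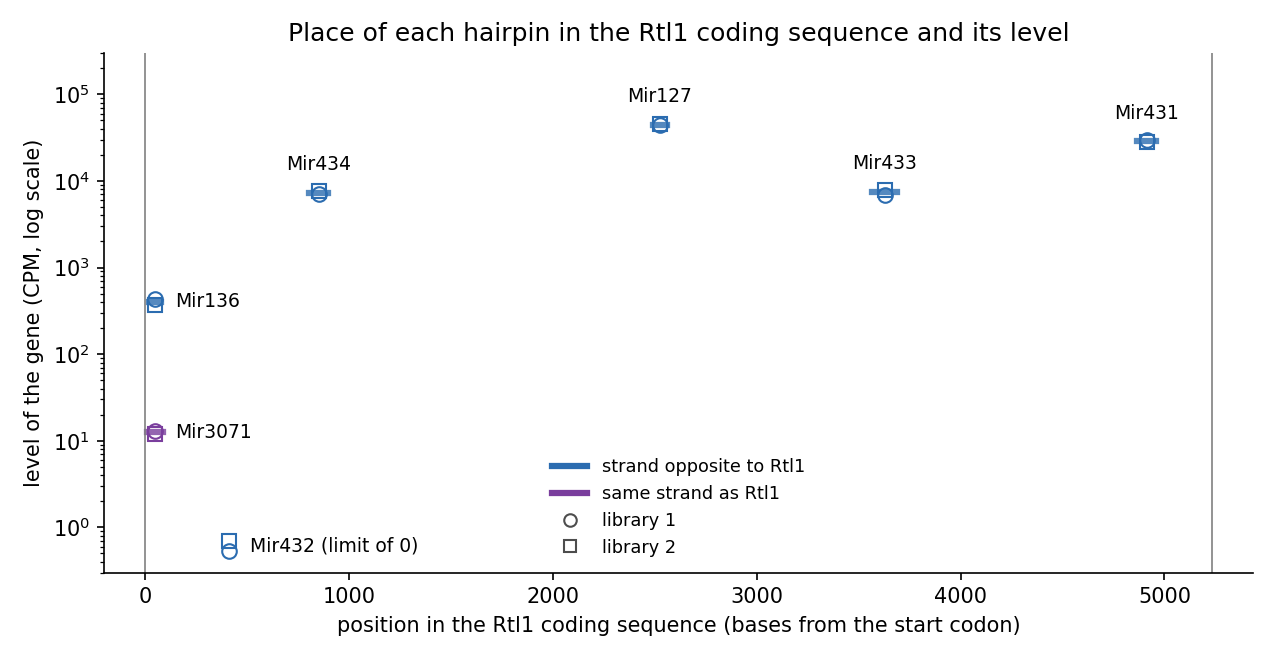
Place of each hairpin in the Rtl1 coding sequence, in bases from the start codon, against its level in CPM (log scale) in library 1 (circles) and library 2 (squares). Horizontal lines span the hairpin at its mean level, and grey lines mark the start and end of the coding sequence. The 4 genes with mean levels of 7344 CPM and above lie at base 805 and beyond, while Mir136 and Mir3071 lie at the first codons.

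The uniqueness of the hairpins bears on how well their reads could be counted. None of the 7 genes had a stretch of at least 20 bases in common with a counted gene that it does not overlap, against 49.4% of all counted genes and 8 of the other 59 in the domain. The longest stretch that a listed hairpin shared was 11 or 12 bases. Matches elsewhere in the genome were not searched. Of the 7 hairpins, Mir434 and Mir431 repeated stretches of 8 bases, with up to 3 copies in Mir434 and up to 2 in Mir431. Mir434 holds 3 copies of the stretch gguuugaacca, in capitals here:
Mir434 hairpin (mm10 plus strand): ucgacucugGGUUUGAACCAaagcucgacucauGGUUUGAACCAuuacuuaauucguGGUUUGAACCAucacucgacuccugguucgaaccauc

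It lies at chr12:109594506-109594599. The second copy closes miR-434-5p and the third overlaps the start of miR-434-3p. The hairpin also holds ugguucgaacca, 12 bases that equal their own reverse complement. In the other 6 hairpins, the longest stretch whose reverse complement occurs anywhere in the same hairpin had 6 to 10 bases, and 12 bases in Mir434.

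The reads of these genes came almost wholly from the strand opposite to Rtl1. Over the 7 genes, plus-strand reads made up 99.98% of both strands in library 1 and in library 2. On the Rtl1 strand lay 86 reads of 487879 in library 1, or 0.0176% (exact 95% interval 0.0141 to 0.0218), and 68 of 385100 in library 2, or 0.0177% (0.0137 to 0.0224). Most of them, 72 and 52, were the reads of Mir3071. The deposited tables give no count for Rtl1 mRNA, so the level of the target was not analysed here.

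Mir136 and Mir3071 face each other over all 62 bases of Mir136, and each is listed as the other's opposite strand in the counts. Their hairpins are shown because reads of either can be told apart only by strand, with the mature arms in capitals:
Mir136 hairpin, plus strand, chr12:109595327-109595388: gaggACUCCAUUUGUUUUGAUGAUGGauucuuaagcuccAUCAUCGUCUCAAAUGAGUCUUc
Mir3071 hairpin, minus strand, chr12:109595318-109595397: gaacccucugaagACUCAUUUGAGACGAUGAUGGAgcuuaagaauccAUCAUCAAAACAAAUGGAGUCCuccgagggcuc

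The 5p arm of Mir136 faces the 3p arm of Mir3071 over 20 bases, and its 3p arm faces the 5p arm over 19 bases. Of the reads at this place, the minus strand held 2.89% in library 1 (exact 95% interval 2.27 to 3.63) and 3.15% in library 2 (2.36 to 4.11). The domain held 6 other pairs of overlapping counted genes on opposite strands. The highest of these, Mir337 with Mir3544, had 0.728% on the minus strand in library 1 (0.638 to 0.827) and 0.595% in library 2 (0.509 to 0.691), below the intervals of the Mir136 pair. In number of reads the order was the reverse, with 233 and 171 for Mir3544 beside 72 and 52 for Mir3071. The percentages also depend on the plus strand, where Mir337 had 31784 and 28568 reads and Mir136 had 2416 and 1597. Mir299a with Mir299b had 0.0335% in library 1 and 0.0484% in library 2, and 4 pairs had no minus-strand read. When strand was ignored, the counts of Mir136 and Mir3071 were 0, because those counts leave out reads that fall on more than 1 gene.

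**Figure D3:**
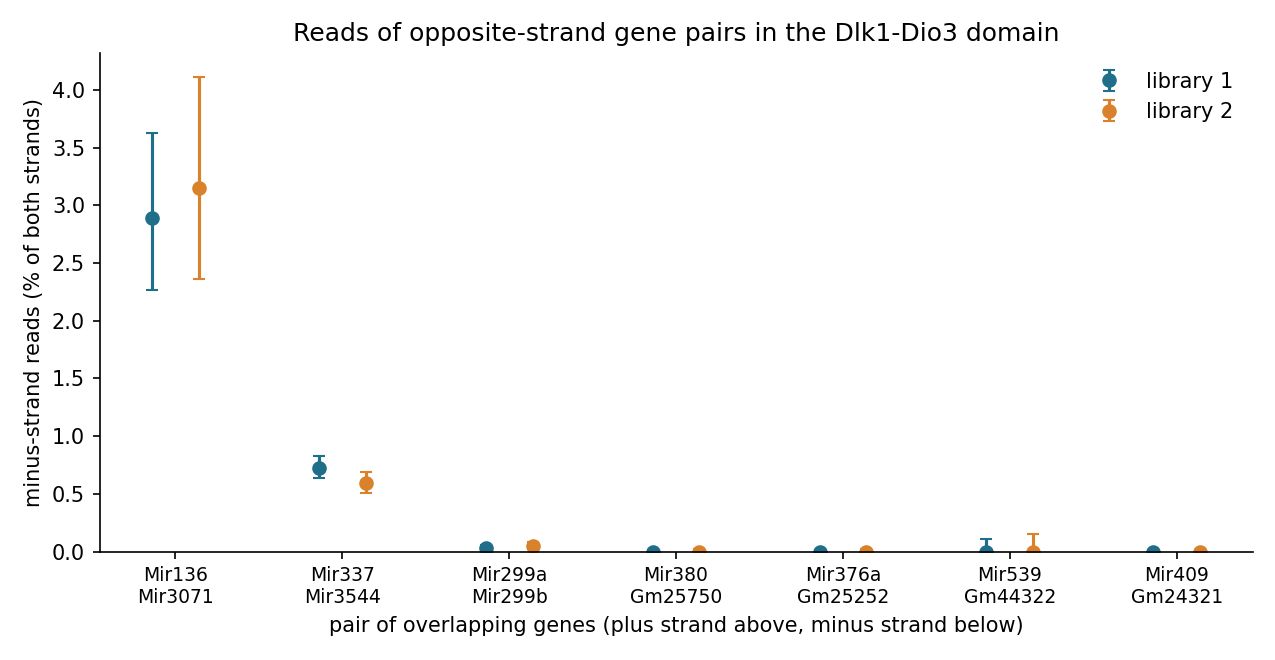
Reads on the minus strand as a percentage of the reads on both strands, for the 7 pairs of overlapping opposite-strand genes of the domain, in library 1 and library 2 with exact 95% counting intervals. The Mir136 and Mir3071 pair is at 2.89% and 3.15%, and the pair next to it, Mir337 and Mir3544, is at 0.728% and 0.595%.

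The other miRNA genes of the domain were grouped by position only. The domain held 66 counted miRNA genes, of which the 7 listed ones are 10.6%. They took 26.5% of the domain's counts in library 1 and 25.7% in library 2, or 26.1% ± 0.575 (SD, n = 2). With every gene left out that has at least 20 bases in a row in common with another counted gene, the share of the listed genes was 40.9%. The array from Mir379 to Mir410, at the Mirg end of the domain, had 43 genes and 66.1% ± 0.0747 of the counts, with Mir411 highest at 73057 ± 5406 CPM. The 10 genes on the Meg3 side held 6.71% ± 0.545, with Mir540 highest at 6558 ± 1396 CPM. The 5 genes on the Rian side held 1.08% ± 0.110, with Mir341 highest at 3106 ± 449 CPM, and Mir3072, the only gene beyond Mir410, was at 69.1 ± 15.8 CPM. The median level was 7344 CPM for the 7 listed genes, 1363 CPM on the Meg3 side, 38.9 CPM on the Rian side and 725 CPM in the array. Outside the list, 49 of 59 domain genes were detected. Mir127, Mir431, Mir433 and Mir434 held ranks 3, 5, 8 and 9 of the domain. With 1 group of 2 libraries these differences between gene groups were not tested.

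The listed genes had low and high neighbours on the plus strand. Mir3070b, which ends 1766 bases before Mir431, was at 1.26 CPM in library 1 and 2.31 CPM in library 2. The next gene upstream, Mir3070a, was also low, at a mean of 4.15 ± 0.982 CPM. Farther upstream, Mir665, Mir540 and Mir337 averaged 2802 ± 49.1, 6558 ± 1396 and 6147 ± 623 CPM, beside 7399 CPM for Mir433 and 7344 CPM for Mir434. Downstream, the next plus-strand gene after Mir136 was Mir341, 16102 bases from the end of the last listed hairpin, at 2789 CPM in library 1 and 3424 CPM in library 2.

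**Figure D4:**
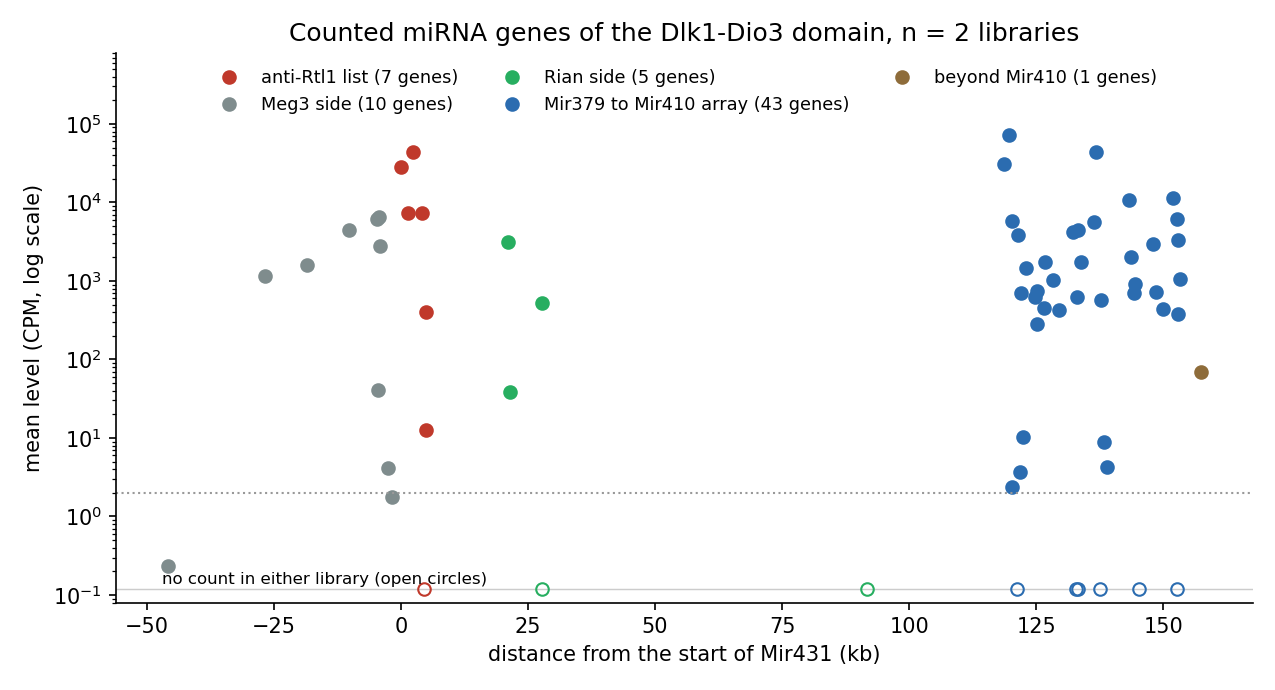
Mean level in CPM (log scale) of the 66 counted miRNA genes of the Dlk1-Dio3 domain against their distance from the start of Mir431 in kb, coloured by position group, with detection at 2 CPM as a dotted line. Mir127 is at 44397 CPM among the 7 listed genes, Mir411 at 73057 CPM in the array, and open circles are genes with no count in either library.

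For each detected gene, the gene outside the list whose levels lay nearest was found as the distance in log2(CPM + 0.5) over the 2 libraries. Nearest to Mir127 was Mir487b, at 42350 CPM in library 1 and 46506 CPM in library 2, a distance of 0.07. Nearest to Mir431 was Mir379, at 30148 and 31059 CPM in libraries 1 and 2, a distance of 0.16. Both belong to the array of the same domain. The others had their nearest gene on another chromosome: Mirlet7b for Mir433 (distance 0.20), Mir351 for Mir434 (0.23), Mir500 for Mir136 (0.01) and Mir20b for Mir3071 (0.08). The level of Mir487b is uncertain, because a stretch of at least 20 of its bases also occurs in another counted gene. With 2 libraries this likeness describes the level and little else.

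The counts of the libraries were compared gene by gene in an exact binomial test, two-sided and adjusted by Benjamini-Hochberg over the 335 detected genes. This compares these libraries and no conditions, and at such counts it calls very small differences. Of the 6 detected genes, 5 passed at an adjusted p of 0.05, beside 55.5% of all genes tested. In library 1, 2 of the 6 genes were called higher, where 26.9% of all genes were, and 3 were called lower, where 28.7% of all genes were. None of the 6 lay more than 1.5-fold apart, against 15.2% of the detected genes. The median size of the log2 ratio was 0.11 for the 6 genes and 0.21 for all 335. These comparisons do not allow for level. The genes more than 1.5-fold apart all had mean levels below 1000 CPM, while 4 of the 6 were above it. Whether the listed genes differ from others of like level was not tested.

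Of the listed genes, Mir136 had the largest ratio, a log2 of library 1 over library 2 of 0.26 (95% counting interval 0.17 to 0.35, exact binomial test, adjusted p = 7.51e-08). Mir431 was higher in library 1 by 0.09 (0.08 to 0.10), while Mir433 was at -0.15 (-0.18 to -0.13) and Mir434 at -0.09 (-0.11 to -0.06), both lower in library 1. Mir127 was called at -0.01 (-0.02 to -0.01, exact binomial test, adjusted p = 0.00327), but the direction turned to 0.02 with DESeq2 size factors, to 0.06 with scaling factors taken from all counted genes and to 0.01 with strand ignored. Mir434 was at -0.02 and no longer called with factors from all counted genes. Mir3071 was not called at 0.13 (-0.40 to 0.67), an interval that its 124 reads over both libraries leave wide. The split of all calls was 90 higher and 96 lower in library 1 here, and 117 higher and 74 lower with factors from all counted genes. The listed genes thus went both ways between the libraries.

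**Figure D5:**
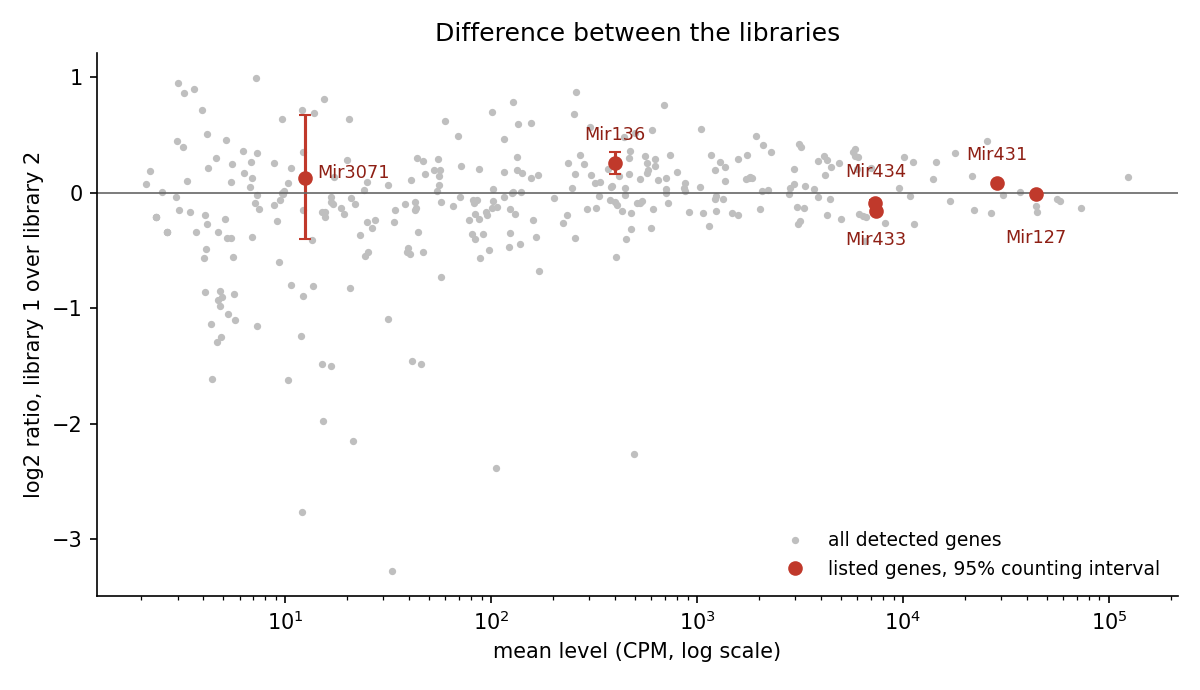
Log2 ratio of library 1 over library 2 against mean level in CPM (log scale) for the 335 detected genes in grey and the 6 detected listed genes in red with 95% counting intervals. The listed genes lie between -0.15 (Mir433) and 0.26 (Mir136).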

How the data were processed

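Small RNA was sequenced in 2 libraries of 1 group. The authors deposited raw counts per gene against mm10 with the GENCODE M21 annotation (build and annotation per the text file beside each table). For the aligner and the counting settings, nothing is given in the sources used here. The 3 count columns have no names; by their layout and sums they ignore strand, hold the gene's own strand and hold the opposite strand, and the second was used. The 4 lines that name no gene stayed out of library totals. They held 46.6% of all reads in library 1 and 48.9% in library 2. All 2202 gene identifiers matched GENCODE M21 genes of type miRNA. Domain groups were set by position.

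Levels are CPM. The pseudocount for distances was 0.5 CPM, and the limit of a count of 0 is 3 counts. Scaling between libraries used TMM from detected genes (edgeR 4.0.16), and DESeq2 1.42.0 gave an alternative, both under R 4.3.3. With 1 group no count model was fitted. Intervals are exact at 95%, and p-values reflect only the difference between these libraries, which may be technical. The test was run on simulated counts that held counting error alone, the error it assumes. It called 92% of genes set 2-fold apart, 82% of those set 1.5-fold apart and 2.22% of unchanged genes. The simulation had no other spread between libraries, so it cannot show how the test behaves under such spread. Other steps used Python 3.11.15 and scipy 1.17.1. Sequences were from RefSeq, which matched all 7 genes, and from GENCODE M21 transcripts. The listed genes, the marker lists and the rules were chosen with earlier results of these data known. Named were all listed genes, the gene nearest each detected one in level, and the highest gene of each domain group and marker list. Chosen after seeing their values were Mir3070a, Mir3070b, Mir665, Mir337, Mir3544, Mir299a, Mir299b, Mir9-2, Mir124a-2, Mir124a-3, Mir137, Mir145a, Mir192 and the skeletal muscle genes other than Mir206.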

Additional observations from a re-analysis of the deposited data

Results flagged for a closer look

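Mir434 had reads on the strand opposite to its own, outside the counts used for its level, with no counted gene annotated there. Library 1 held 11 of them and library 2 held 13, more than the 3 counts that could pass unseen behind a 0. They stood beside 39383 own-strand reads in library 1 and 33034 in library 2. The hairpin of Mir434 holds a stretch of 12 bases equal to its own reverse complement, and the part of that stretch in these reads was not tested. Of the other genes that overlap no counted gene, Mir127 had 2 and 3 such reads in libraries 1 and 2, Mir431 had 1 and 0, and Mir433 and Mir432 had none.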

How the results depend on the processing

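The listed genes' share of gene counts was 8.82% as reported, 9.9994% with strand ignored, 11.5% without genes sharing 20 bases or more and 4.61% of all reads. Their share of Dlk1-Dio3 counts was 26.1% as reported, 28.3% with strand ignored and 40.9% without genes sharing such stretches. Leaving out either library gave 8.76 to 8.88% and 25.7 to 26.5%, and left no test between libraries. Detection stayed at 6 genes at 10 CPM, at 1 count and in either library alone, and was 4 with strand ignored. The number of genes called between libraries was 5 of 6 with DESeq2 size factors, plain totals and either other filter on low counts. With strand ignored only 4 genes could be tested, and all 4 were called. With factors from all counted genes, an alternative chosen after seeing the data, 4 of 6 were called. The Mir127 log2 ratio reversed to 0.0176 with DESeq2 size factors, 0.0559 with factors from all counted genes and 0.0120 with strand ignored; the cause was not tested. Of 34 recomputed ratios, 30 kept direction and call; the remaining exception was Mir434, at -0.02 with factors from all counted genes. Without Mir3071, also added later, 5 of 6 genes were detected and both shares rounded to the same values. With stretches of 18 or 24 bases still no listed gene shared one, and pseudocounts of 0.1 or 5 CPM left all 6 nearest genes as named. Depth limits Mir432 and the ratio of Mir3071. No paired analysis was possible because the series has 1 group.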
